A study of Homo sapiens with 36 samples.

Results

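The proteasome is the protease that destroys proteins tagged with ubiquitin, and HDAC4, the protein this study set out to remove, is one of its substrates. The 34 genes described here encode its subunits and were chosen by name, out of 62757 genes in the files. They are the 7 genes of the α ring, 4 genes of the β ring without an active site, 3 genes of the constitutive active sites, 3 genes of the inducible active sites, 6 ATPases and 11 other subunits of the regulatory particle. RNA-seq was done in HCT-116, a human colorectal cancer cell line, either wild-type (WT) or FBXW7-/- (KO), which lacks the substrate receptor of a ubiquitin ligase. Each of 8 groups had 3 libraries. KO cells received a control esiRNA against luciferase (esiCT), an esiRNA pool against HDAC4 (esiHDAC4), or PROTAC #11 together with esiCT, for 48 h, each without or with oxaliplatin (OXPT), a platinum drug that damages DNA, at 50 µM for 24 h. PROTAC #11 is a degrader of class IIa HDACs, which joins them to a ubiquitin ligase so that the proteasome destroys them, and its dose is given as 1 µM in one label and 10 µM in another. WT cells were untreated or OXPT treated, and their labels disagree on whether the esiRNA was the control or the one against HDAC4. The KO cells were a bought line, and no source used here says whether they descend from 1 clone. The labels do not say that replicates were separate cultures, and the study's methods mention independent experiments only in general, so p-values measure the spread between these libraries, which may be technical.

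A proteasome is built from a barrel, the 20S core particle, capped by the 19S regulatory particle. The α ring gates the entry of the barrel, the β ring carries the active sites on its inner face, the 19S ATPases unfold substrates and thread them in, and the other 19S subunits bind and remove ubiquitin and form the lid and base scaffold. In many cell types the genes respond together when the proteasome is impaired, through the transcription factor NFE2L1, and interferon exchanges the constitutive active sites for the inducible ones.

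The 24 libraries held 10725966 to 20527222 counts on genes, with a median of 14510758. The share of unmapped reads ran from 7.74% to 22.3%, and the highest was KO esiCT OXPT replicate 3. The epithelial markers EPCAM, CDH1, KRT8, KRT18 and KRT19 were measured, CDX1 and VIL1 were under the count minimum, and none of 4 leukocyte and 3 endothelial markers reached it. Of 4 fibroblast markers COL1A1 was measured and was not called under OXPT. KRT8 was called higher under OXPT in all 4 backgrounds (log2 fold changes of 1.01 to 1.29) and KRT18 in KO esiCT and KO esiHDAC4. KRT19 was at 0.79 to 1.13 and not called. EPCAM was at -0.40 to -0.01 and CDH1 at -0.48 to -0.15, none called, and in #11 cells the EPCAM libraries with OXPT were all below the untreated ones. The part of these markers in the results was not tested. FBXW7 stood at 15.4 to 18.1 CPM (counts scaled to the size of the library) in untreated KO esiCT cells and at 16.9 to 23.5 CPM in untreated WT cells, so gene counts do not check the knockout. HDAC4 stood at 14.02 to 24.9 CPM in untreated KO esiCT cells, at 8.80 to 14.9 CPM with esiHDAC4 and at 21.6 to 26.9 CPM with #11, which acts on the protein. In bulk RNA, fewer cells of a kind and less RNA per cell cannot be told apart.

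Of the 34 genes, 31 passed the minimum of 64 mean raw counts in at least 1 group and were tested. PSMA2, PSMB8 and PSMB10 did not. PSMA2 reached 0.488 ± 0.013 CPM per kb of mRNA (SD, n = 3) in untreated WT cells, and 100% of the bases of its canonical mRNA also belong to exons of another annotated gene, whose shared reads are dropped as ambiguous. The same holds for 83.2% of PSMC1, 81.4% of PSMA6, 67.0% of PSMA1, 56.1% of PSMB10, 51.6% of PSMD7 and 13.7% of PSMC5, so the levels of these 7 genes are too low by an unknown amount. Among the 27 others, 15 were above 100 CPM per kb in untreated WT cells. PSMA7, of the α ring, was highest at 669 ± 268 CPM per kb (SD, n = 3), followed by PSMB4 at 417 ± 89.2 and PSMB7 at 391 ± 132, and the spread of these 3 overlapped. At the low end stood PSMC6 at 18.5 ± 10.4, PSMB9 at 8.72 ± 3.73 and PSMB8 at 0.388 ± 0.284 CPM per kb (SD, n = 3). These levels are per length of 1 annotated mRNA per gene, so a gene whose cells use a shorter mRNA is set too low.

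**Figure D1:**
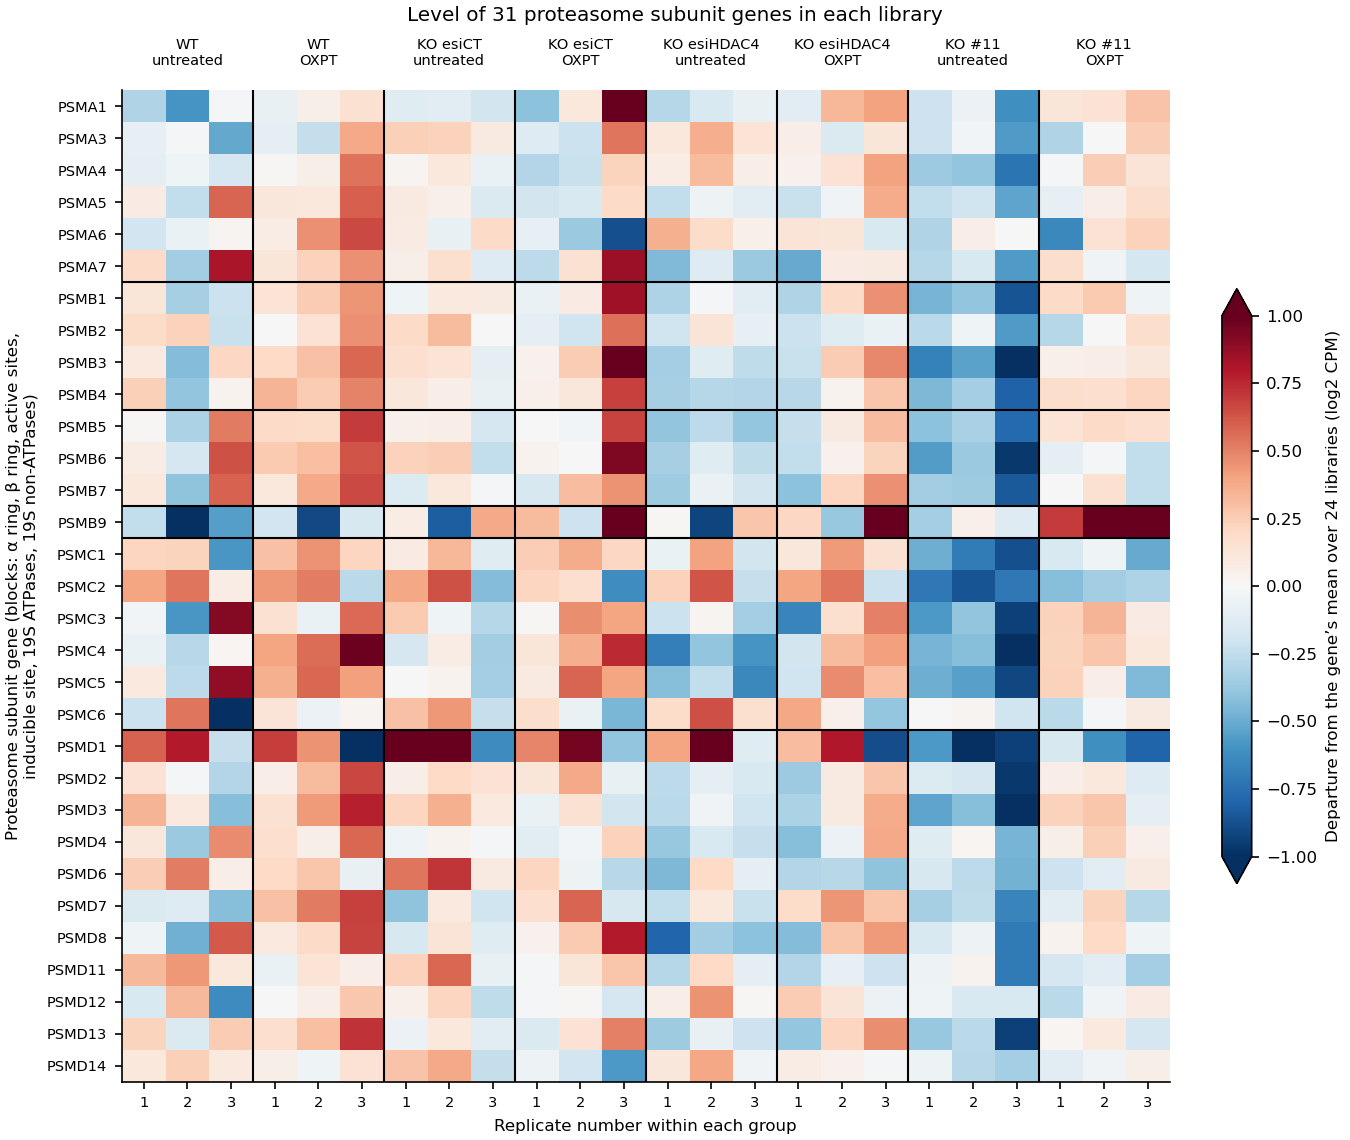
Departure of each of the 31 tested proteasome subunit genes (rows, in blocks by role) from its own mean over the 24 libraries, in log2 CPM, for the 3 replicates of each of the 8 groups (columns). In the 3 libraries of KO cells with #11 and no OXPT most rows are blue, with median departures of -0.34, -0.27 and -0.71, and PSMD1 changes colour with replicate 3.

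The 3 libraries of untreated KO cells with #11 had the lowest level of the whole group, next to 1 library with esiHDAC4. The median departure of the 31 genes from their own means was -0.34, -0.27 and -0.71 (log2 CPM) in these 3 libraries, with 31, 26 and 30 of the 31 genes below their mean. Untreated KO cells with esiHDAC4 gave -0.27, -0.04 and -0.18, so the first of these was level with #11 replicate 2. Untreated KO esiCT cells gave 0.08, 0.13 and -0.12, and KO cells with both #11 and OXPT gave 0.00, 0.10 and 0.06. The highest values were 0.50 in WT OXPT replicate 3 and 0.39 in KO esiCT OXPT replicate 3, followed by 0.28 in KO esiHDAC4 OXPT replicate 3. Their unmapped reads were 11.9%, 22.3% and 13.4%, against a median of 9.29% over the 24 libraries. WT untreated replicate 3 had 13.8% unmapped and a departure of 0.04. The part of unmapped reads in these levels was not tested. Within groups the genes moved together in part. The correlation of a gene's departures from its group means with the median departure of the other members had a median of 0.64 over the 31 genes, and each value rests on the same 24 libraries and their scaling. It was highest for PSMC4 at 0.97 and PSMD13 at 0.95, and lowest for PSMD1 at -0.33.

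The first question was which subunit genes responded to OXPT. A gene was called where its adjusted p was under 0.05 over all 12356 genes tested (edgeR quasi-likelihood test, Benjamini-Hochberg) and its fold over 1.5. OXPT raised 5 of 31 members in KO cells with #11, where 5.94% of all genes were called higher, and these were PSMA4, PSMB3, PSMB4, PSMC4 and PSMD3. It raised PSMC4 and PSMD7 in WT cells, against 5.1% of all genes, and PSMC4 alone in KO esiHDAC4 cells, against 6.44%. In KO esiCT cells none of 31 was called, against 6.23% higher and 5.08% lower over all genes, with 4 members at an unadjusted p under 0.05 in edgeR, against 26.1% of all genes, and 0 called by DESeq2. No member was called lower in any of the 4 responses, against 5.54% of all genes in KO esiHDAC4, 3.57% in KO #11 and 5.6% in WT cells. The count of 5 with #11 became 8 with the replicate number as a block, against 8.26% of all genes, where the added members were PSMB1, PSMB5 and PSMB9.

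The median log2 fold change of the 31 members under OXPT was 0.16 with esiCT, 0.24 with esiHDAC4 and 0.40 with #11 in KO cells, and 0.24 in WT cells. Over all tested genes it was 0.01, 0.02, -0.00 and -0.06. Single libraries moved 3 of the 4 member medians. With esiCT it was -0.03 without OXPT replicate 3, 0.09 without OXPT replicate 2, 0.06 without untreated replicate 3 and 0.26 without untreated replicate 2. With esiHDAC4 it was 0.07 without OXPT replicate 3, 0.14 without untreated replicate 1 and 0.40 without OXPT replicate 1. In WT cells it was 0.13 without OXPT replicate 3 and 0.38 without untreated replicate 3. With #11 no library moved it by over 1.5 times. With #11 the value was above 0 for 29 of 31 members, against 49.75% of all genes. There 12 members had an unadjusted p under 0.05 and a higher level, against 13.6% of all genes. In 19 the 3 OXPT libraries were all above the 3 untreated ones, against 22.4%. With esiCT 18 were above 0 and 13 below, with 50.81% of all genes above 0. The KO #11 count rested on single libraries: without #11 untreated replicate 3, #11 OXPT replicate 1 or #11 OXPT replicate 2 it was 0, without #11 untreated replicate 1 it was 1 and without #11 OXPT replicate 3 it was 2. It was 3 without KO esiCT untreated replicate 1 or 2, KO esiHDAC4 OXPT replicate 2, or KO esiHDAC4 untreated replicate 1 or 3. In KO esiCT cells 1 member was called without OXPT replicate 1 or untreated replicate 3. In KO esiHDAC4 cells 2 were called without OXPT replicate 1 or WT untreated replicate 3, and 0 without OXPT replicate 2 or 3 or untreated replicate 1 or 3. In WT cells 0 were called without OXPT replicate 3, and 1 without OXPT replicate 2 or any of the 3 untreated libraries.

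**Figure D2:**
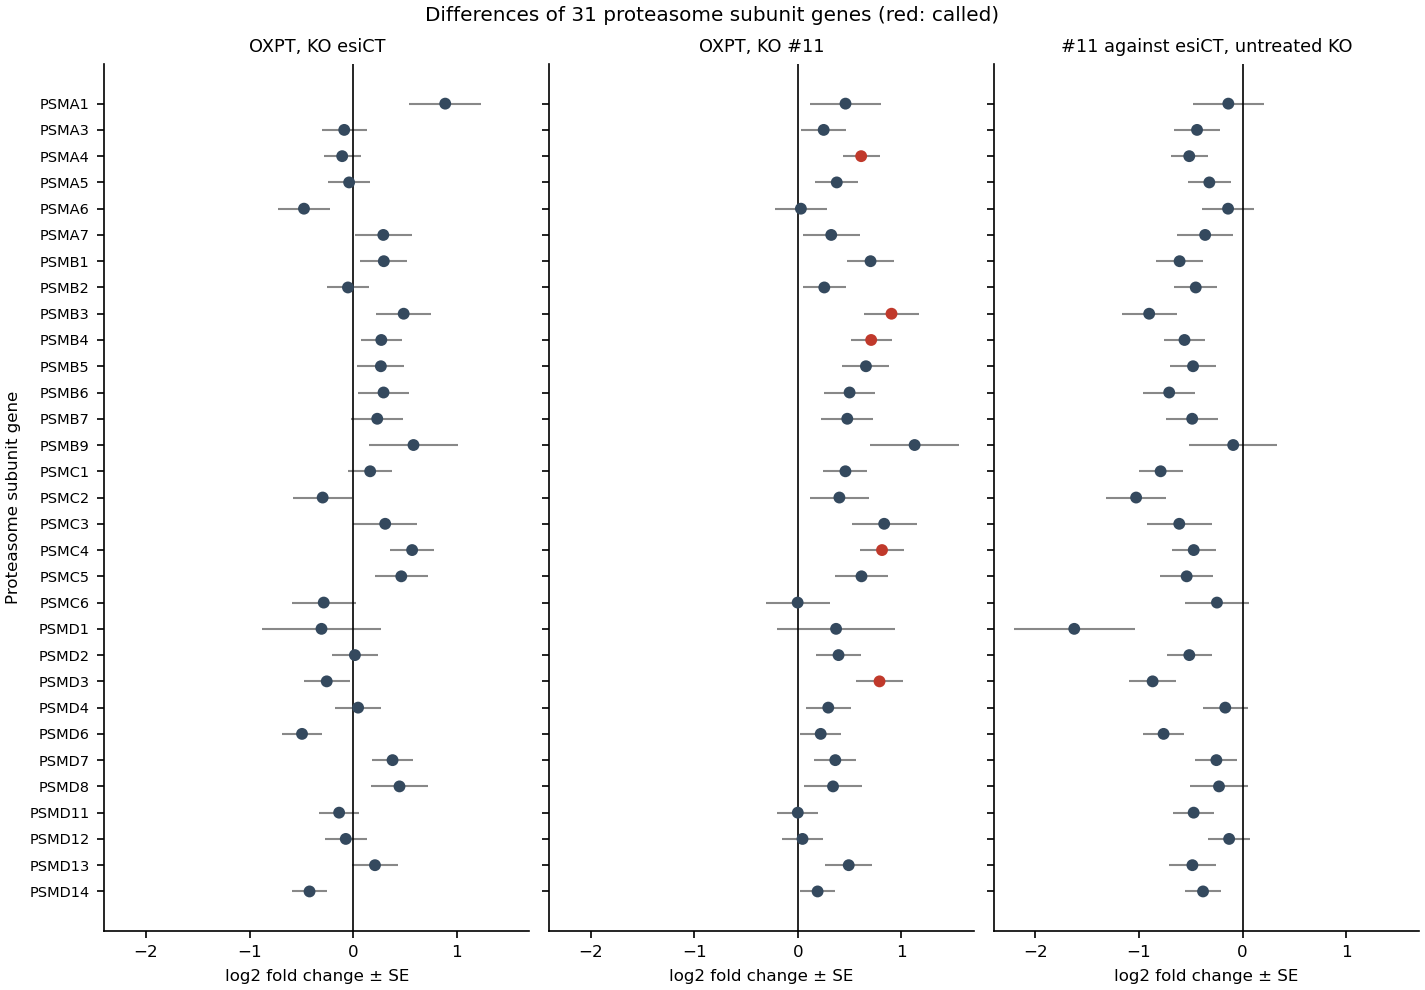
log2 fold change ± SE (edgeR) of the 31 tested proteasome subunit genes in 3 comparisons, with called genes in red. Under OXPT the genes lie on both sides of 0 in KO esiCT cells and mostly above 0 with #11, and without OXPT all 31 lie below 0 in #11 against esiCT.

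PSMC4 encodes an ATPase of the 19S base, and it alone of the 31 had every OXPT library above every untreated one in all 4 backgrounds. With #11 22.4% of all genes had such a pattern, and the share with it in all 4 backgrounds was not counted. In KO esiCT cells it was at 220, 261 and 195 CPM untreated and at 270, 318 and 415 CPM with OXPT. In KO esiHDAC4 cells it was at 154, 188 and 164 CPM untreated and at 218, 308 and 329 CPM with OXPT. The groups did not overlap in either pair. In KO cells with #11 PSMC4 was at 179, 184 and 124 CPM untreated and at 289, 301 and 267 CPM with OXPT. In WT cells it was at 237, 204 and 251 CPM untreated and at 325, 366 and 489 CPM with OXPT. Here too every treated library was above every untreated one. The log2 fold change was 0.77 ± 0.21 (SE, adjusted p = 0.0214, edgeR) in WT, 0.76 ± 0.21 (adjusted p = 0.0227) in KO esiHDAC4 and 0.81 ± 0.21 (adjusted p = 0.018) in KO #11. In KO esiCT it was 0.57 ± 0.21 and was not called (adjusted p = 0.0856, edgeR). The difference of its responses between KO #11 and KO esiCT was 0.24 ± 0.30 (log2, SE) and was not called (adjusted p = 0.998, edgeR). Leaving out 1 library ended the call in 3 of 24 fits for WT (WT OXPT replicate 3, WT untreated replicate 1 or 2), with log2 fold changes from 0.58 to 0.89. It ended it in 4 of 24 for KO esiHDAC4 (OXPT replicate 2 or 3, untreated replicate 1 or 3, from 0.63 to 0.92) and in 3 of 24 for KO #11 (untreated replicate 3, OXPT replicate 1 or 2, from 0.62 to 0.90).

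PSMD3, a scaffold subunit of the 19S lid, was called in KO cells with #11. It was at 193, 207 and 136 CPM untreated and at 328, 338 and 261 CPM with OXPT, so the treated libraries were all higher. The log2 fold change was 0.79 ± 0.22 (SE, adjusted p = 0.0287, edgeR). In KO esiCT cells PSMD3 was at 324, 357 and 299 CPM untreated and at 266, 309 and 245 CPM with OXPT, which overlapped and gave -0.26 ± 0.22. The difference between the 2 responses was 1.04 ± 0.32 (log2, SE), the largest of the 31, and was not called (adjusted p = 0.39, edgeR). KO esiHDAC4 gave 0.24 ± 0.22 and WT 0.43 ± 0.22, neither called. The call with #11 was lost without #11 untreated replicate 1 or 3 or #11 OXPT replicate 1 or 2, with log2 fold changes of 0.60 to 0.90 over the 24 fits.

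PSMB3 and PSMB4 encode β subunits without an active site. PSMB3 was at 177, 195 and 106 CPM in untreated KO cells with #11 and at 292, 295 and 306 CPM once OXPT was added. The log2 fold change was 0.90 ± 0.27 (SE, adjusted p = 0.0348, edgeR). PSMB4 was at 283, 306 and 221 CPM untreated with #11 and at 437, 435 and 451 CPM with OXPT, a log2 fold change of 0.71 ± 0.20 (adjusted p = 0.0261, edgeR). Neither gene overlapped between the 2 groups. Their treated levels with #11 were inside the range of the other OXPT groups: KO esiCT cells with OXPT gave 290, 337 and 623 CPM for PSMB3 and 401, 420 and 622 CPM for PSMB4. The call of PSMB4 was lost in 5 of 24 fits with 1 library left out, 5 of the 6 #11 libraries, with values of 0.55 to 0.80. The call of PSMB3 was lost in 11 of 24, with values of 0.65 to 1.06.

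PSMA4, of the α ring, was the last of the 5. It was at 191, 186 and 147 CPM in untreated KO cells with #11 and at 242, 291 and 269 CPM with OXPT, a log2 fold change of 0.61 ± 0.18 (SE, adjusted p = 0.033, edgeR). In KO esiCT cells it was at 250, 264 and 234 CPM untreated and at 200, 211 and 285 CPM with OXPT, which overlapped. Its call was the least stable, being lost in 15 of 24 fits with 1 library left out. These were each of the 6 #11 libraries and 9 libraries outside the comparison, which enter the same fit, with values of 0.47 to 0.66.

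PSMD7, a lid subunit that holds the deubiquitinase PSMD14 in place, was called in WT cells, and its response was not shown to differ from that of KO cells. It was at 58.5, 59.3 and 48.1 CPM untreated and at 79.3, 92.9 and 104 CPM with OXPT, without overlap, for a log2 fold change of 0.73 ± 0.20 (SE, adjusted p = 0.0227, edgeR). KO cells gave 0.38 ± 0.20 with esiCT, 0.41 ± 0.20 with esiHDAC4 and 0.36 ± 0.20 with #11, none called. The difference of KO esiCT minus WT was -0.35 ± 0.29. An antisense gene shares 31.2% of its exon bases, and counted on the reverse strand the WT value was 0.33 and not called. Both strands held nearly equal totals, so the reverse-strand count cannot separate PSMD7 from the antisense gene. The call of PSMD7 was also lost without WT OXPT replicate 2 or 3 or WT untreated replicate 3, with values of 0.64 to 0.83.

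PSMB1 and PSMB5 came next by p. PSMB5 carries the chymotrypsin-like active site, the target of bortezomib. It was at 180, 192 and 140 CPM in untreated KO cells with #11 and at 263, 273 and 270 CPM with OXPT, without overlap and not called (0.66 ± 0.23, adjusted p = 0.073, edgeR). PSMB1, a β subunit without an active site, was at 238, 248 and 180 CPM untreated with #11 and at 374, 391.7 and 317 CPM with OXPT, again without overlap (0.70 ± 0.23, adjusted p = 0.0556, edgeR). The other active site genes gave 0.50 ± 0.25 for PSMB6 and 0.48 ± 0.25 for PSMB7. PSMC3, a 19S ATPase, was at 0.83 ± 0.31, without overlap and not called. Smaller values were those of PSMA3, PSMA5, PSMB2, PSMD2, PSMD4, PSMD8 and PSMD11, at -0.00 (PSMD11) to 0.39 (PSMD2) with #11 and OXPT. All 3 constitutive active site genes had treated libraries above the untreated ones with #11, against 22.4% of all genes, and none was called.

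**Figure D3:**
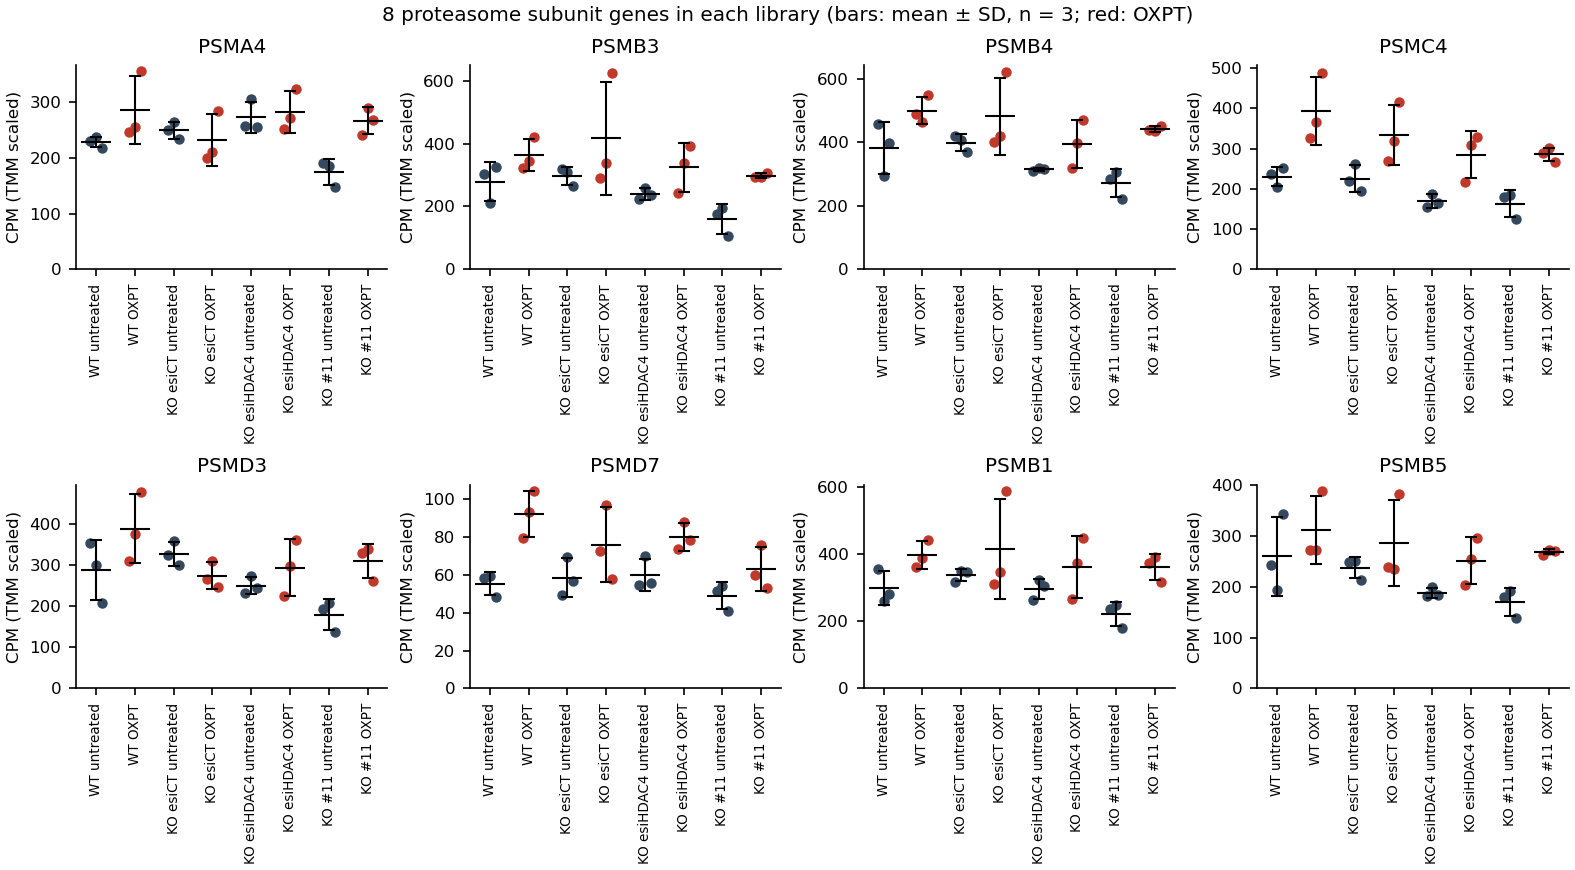
Level in CPM of 8 proteasome subunit genes in each library, by group, with the mean ± SD (n = 3) as black bars and OXPT libraries in red. The untreated #11 libraries hold the lowest values of PSMB3, at 106 to 195 CPM, and PSMC4 is higher with OXPT in each of the 4 pairs of groups.

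The second question was what #11 did without OXPT. None of the 31 members was called in #11 against esiCT in untreated KO cells, where 0.51% of all genes were called in either direction. All 31 log2 differences were negative, from -1.62 in PSMD1 to -0.09 in PSMB9, with a median of -0.48 against -0.00 over all tested genes. Of all tested genes 49.56% had a positive difference. At an unadjusted p under 0.05 (edgeR) 18 of 31 were lower and 0 higher, against 6.12% of all genes lower. In 20 of 31 the 3 #11 libraries were all below the 3 esiCT libraries, against 14.8% of all genes. DESeq2 called 5 members lower against 1.41% of all genes, namely PSMB3, PSMC1, PSMC2, PSMD3 and PSMD6.

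PSMD3 and PSMD6, both 19S lid subunits, had the smallest p in this comparison. PSMD6 was at 65.4, 61.1 and 52.6 CPM with #11 and at 106, 120 and 77.7 CPM with esiCT, a log2 difference of -0.76 ± 0.20 (SE, adjusted p = 0.0824, edgeR). For PSMD3, whose values per library stand above, it was -0.87 ± 0.22 (adjusted p = 0.0824, edgeR). PSMC1, an ATPase, was at 50.0, 43.0 and 38.0 CPM with #11 and at 74.1, 88.3 and 64.2 CPM with esiCT, or -0.79 ± 0.21 (adjusted p = 0.09, edgeR). None of these 3 genes overlapped between the groups. By role the medians were -0.34 for the α ring, -0.58 for the β subunits without an active site, -0.49 for the constitutive active sites, -0.58 for the ATPases and -0.47 for the other 19S subunits. Lower without overlap were 4 of 4 β subunits without an active site, 3 of 3 constitutive active sites, 5 of 6 ATPases, 4 of 6 α subunits and 4 of 11 other 19S subunits, against 14.8% of all genes. Leaving out #11 untreated replicate 3 moved the median of the members to -0.33, which was the value nearest 0 with any 1 library left out, and at least 30 of 31 stayed negative in all 24 fits. Without WT untreated replicate 3, 3 members were called lower against 0.825% of all genes.

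The #11 OXPT response and the untreated comparison share the 3 untreated #11 libraries, so they are not separate evidence. Set side by side, PSMB3 differed by -0.90 ± 0.27 (log2, SE) in #11 against esiCT without OXPT and by 0.90 ± 0.27 in its OXPT response with #11. Under OXPT, #11 against esiCT gave a median of -0.15 over the members (-0.25 without KO esiCT OXPT replicate 1, -0.06 without its replicate 3), with 0 called against 0.121% of all genes, 1 at an unadjusted p under 0.05 (edgeR) against 10.2%, and 0 by DESeq2. That member was PSMC1, at -0.50 ± 0.21 (SE). The test of the difference of the OXPT responses, KO #11 minus KO esiCT, called 0 members and 0% of all genes. Its median over the members was 0.34 against -0.02 over all genes (0.18 without #11 untreated replicate 3). Of 31 members 28 were positive, against 48.21% of all genes. PSMA4, PSMD3, PSMD6 and PSMD14 had an unadjusted p under 0.05 (edgeR), 4 higher against 3.62% of all genes.

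Subunit mRNAs are short and abundant, and the tested genes were split into 4 equal bins by each property. The median canonical mRNA of the 31 members had 1540 bases against 3188.5 over all tested genes, and 20 of 31 members were in the shortest bin. For 27 of 31 the mean level was in the most abundant bin. Among all 3089 tested genes of the shortest bin the median log2 fold change under OXPT was 0.28 in KO esiCT cells, where the 20 short members had 0.29. In KO esiHDAC4 it was 0.24 against 0.33 for the short members, in WT 0.08 against 0.26, and in KO #11 0.17 against 0.48. In this bin the members and all genes had nearly the same value with esiCT. With esiCT the 4 members of the second bin were at -0.27 and all its genes at 0.05. In the third bin these were -0.07 and -0.08. For #11 against esiCT without OXPT the shortest bin was at -0.01 and its 20 members at -0.47, and the 7 members of the third bin were at -0.47 with all genes of that bin at 0.01. By abundance, the most abundant bin was at -0.10 and its 27 members at -0.49, and 11.3% of that bin had an unadjusted p under 0.05 and a lower level. By GC content, under OXPT with #11, the bins ran from -0.24 to 0.325 over all genes and from 0.255 to 0.614 over their members. The part of length, GC content and abundance in these differences was not tested further. These bins were chosen after seeing the data.

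**Figure D4:**
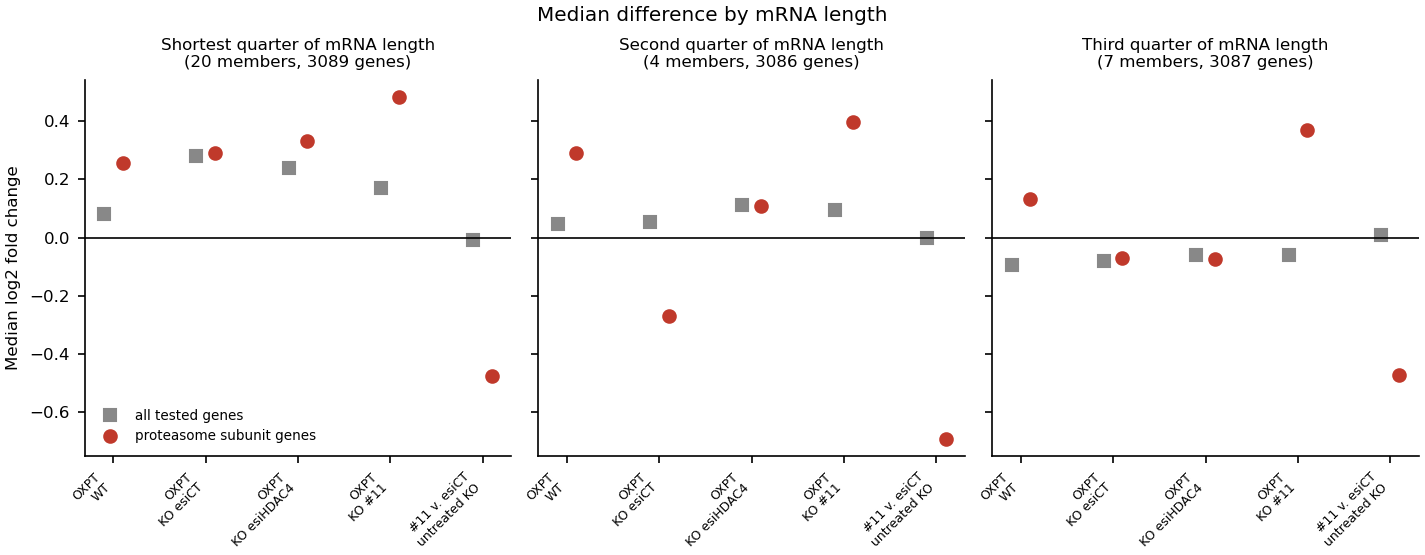
Median log2 fold change of all tested genes (grey squares) and of the proteasome subunit genes (red circles) within 3 of 4 bins of mRNA length, for the 4 OXPT responses and for #11 against esiCT in untreated KO cells. In the shortest bin both symbols are at 0.28 and 0.29 for KO esiCT, and they are apart at 0.17 and 0.48 for OXPT with #11 and at -0.01 and -0.47 for #11 without OXPT.

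Replicate 3 stood apart without overlap for PSMD1 and PSMC2, and in part for some other members. PSMD1, the large scaffold of the 19S base, was at 163 to 316 CPM in replicates 1 and 2 of the 6 groups without #11 and at 27.3 to 121 CPM in their replicate 3, with no overlap. In the 6 #11 libraries it was at 59.1 to 118 CPM. PSMC2, a 19S ATPase, showed the same split, at 99.6 to 138 CPM, 57.5 to 92.9 CPM and 48.7 to 71.3 CPM. So the #11 libraries of all replicate numbers sat near the replicate 3 level for both genes. In #11 against esiCT without OXPT the log2 difference was -1.62 ± 0.59 (SE) for PSMD1 and -1.03 ± 0.29 for PSMC2. Neither was called (adjusted p = 0.191 and 0.0979, edgeR). For PSMD1 the untreated #11 libraries overlapped KO esiCT untreated replicate 3. For PSMC2 they were all below it, with departures of -0.71, -0.86 and -0.71 against -0.43 (log2 CPM). PSMC1, PSMC6, PSMD6, PSMD12 and PSMD14 were also lowest in replicate 3 in most groups without #11. PSMC1, PSMC2 and PSMD6 are among the members that DESeq2 called lower for #11 without OXPT. Whether the #11 libraries were handled with any other replicate is not in the labels. The part of the replicate 3 split in any of these differences was not tested. The median departure of all members was -0.12 in KO esiCT untreated replicate 3, and those of the #11 untreated libraries were all below it. PSMA1 was at 74.4 CPM in KO esiCT OXPT replicate 3 and at 17.2 and 24.7 CPM in the other 2 libraries, so its log2 fold change of 0.89 ± 0.35, the highest member value in that response, rested on the library with most unmapped reads.

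The inducible active sites had the lowest levels of the active site genes. PSMB8 was at 0.88 CPM or less in every library and PSMB10 at 0.31 to 3.75 CPM, both under the count minimum. PSMB9, which replaces PSMB6 in the immunoproteasome, was at 11.3, 14.9 and 13.1 CPM in untreated KO cells with #11 and at 23.5, 29.8 and 32.8 CPM with OXPT. These libraries did not overlap, and the log2 fold change of 1.13 ± 0.43 (SE), the largest of any member in the 4 responses, was not called (adjusted p = 0.106, edgeR). It was 0.58 ± 0.43 with esiCT and 0.52 ± 0.43 with esiHDAC4 in KO cells, and 0.32 ± 0.43 in WT cells, with overlap in each. TAP1, a subunit of the peptide transporter that serves class I presentation and whose gene lies beside PSMB9 in the class II region, was called higher in all 4 responses. TAP1 was at 36.1, 39.3 and 47.0 CPM in untreated KO esiCT cells and at 151, 115 and 32.4 CPM with OXPT, so replicate 3 did not follow the other 2. Its log2 fold change was 1.29 ± 0.33 in KO esiCT, 1.54 ± 0.33 in KO esiHDAC4, 1.69 ± 0.33 in KO #11 and 1.89 ± 0.34 in WT cells (SE; adjusted p = 0.0137, 0.00405, 0.00245 and 0.000858, edgeR).

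Of 11 genes of class I antigen presentation, OXPT called 2 higher and 1 lower in KO esiCT cells. It called 1 higher and 1 lower with esiHDAC4 and likewise in WT cells, and 1 higher and 0 lower with #11. Over all genes 5.1% to 6.44% were called higher and 3.57% to 5.6% lower in the 4 responses. Besides TAP1 these were TAP2, the partner chain of TAP1, at 0.74 ± 0.20 (log2, SE) in KO esiCT, and NLRC5, the activator of class I genes, at -0.65 ± 0.21, -0.79 ± 0.21 and -0.67 ± 0.21 in the first 3 of these backgrounds. The peptide-loading factor TAPBP was at -0.75 in KO esiCT and was not called. In #11 against esiCT without OXPT all 11 had positive values, against 49.56% of all genes, and none was called, while the 31 subunit genes were all negative.

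Among 8 genes that control proteasome genes, VCP, the ATPase that extracts NFE2L1 from the membrane of the endoplasmic reticulum, was called in both #11 comparisons, which share the untreated #11 libraries. It was at 195, 195 and 156 CPM with #11 and at 318, 315 and 303 CPM with esiCT without OXPT, with no overlap. This log2 difference of -0.78 ± 0.16 (SE, adjusted p = 0.039, edgeR) was called, 1 of the 8, against 0.51% of all genes in either direction. With OXPT the #11 libraries were at 330, 303 and 248 CPM, a response of 0.69 ± 0.16 (adjusted p = 0.00806, edgeR) that was called as well. Its partner UFD1 was called in that response, at 0.69 ± 0.19 (adjusted p = 0.028, edgeR), and at -0.79 without OXPT it was not called. In the OXPT response with #11, 2 of the 8 were called higher and 0 lower, against 5.94% and 3.57% of all genes. NFE2L1 itself was at -0.65 with OXPT and 0.30 without it in #11 cells, and NFE2L2, a related factor, at -0.79 and 0.65, none called. In the other 3 OXPT responses 0 of the 8 were called, against 5.1% to 6.44% of all genes higher and 5.08% to 5.6% lower.

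Of 9 assembly chaperones, PSMG4 was called higher in KO esiHDAC4 under OXPT (0.88 ± 0.26, SE, adjusted p = 0.0303, edgeR) and PAAF1, which holds a 19S ATPase during assembly, in KO #11 (0.78 ± 0.19, adjusted p = 0.0128, edgeR). POMP, the maturation factor of the 20S core, had values of 0.40 to 0.63 in the 4 responses, none called. No gene was called in any of the 4 responses among 5 activators and inhibitor, 4 other 19S-bound proteins, 5 shuttle factors and 6 genes of ubiquitin and its E1 enzymes. Over all genes 5.1% to 6.44% were called higher and 3.57% to 5.6% lower in these responses, so lists this small can hold few calls. The deubiquitinase USP14, which rests on the 19S base, was at -0.88, -0.45, -0.65 and -0.72 in KO esiCT, KO esiHDAC4, KO #11 and WT, and the activator subunit PSME2 at 0.38, 0.43, 0.60 and 0.27.

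Silencing of HDAC4 called no member. HDAC4 itself was at -0.82 without OXPT and -0.74 with it (log2, esiHDAC4 against esiCT) and was not called either. Its libraries overlapped without OXPT and did not with it. In esiHDAC4 against esiCT without OXPT, where 0.00809% of all genes were called, the member median was -0.19. Of 31 values 24 were negative, while 49.6% of all genes were positive. There 1 member had an unadjusted p under 0.05 (edgeR) against 3.19% of all genes, and DESeq2 called 0. With OXPT, where 0% of all genes were called, the median was -0.15 with 22 negative, while 50.8% of all genes were positive. The median was 0.03 without KO esiCT OXPT replicate 3, -0.07 without its replicate 2, -0.00 without KO esiHDAC4 OXPT replicate 1 and -0.26 without its replicate 3. With OXPT 0 members had an unadjusted p under 0.05 (edgeR), against 380 of 12356 genes, and DESeq2 called 0 members. KO esiCT against WT cells gave medians of 0.08 without OXPT (-0.02 without KO esiCT untreated replicate 2), against 0.291% of all genes called, and -0.12 with it, against 0.138%. The first was 0.16 without KO esiCT untreated replicate 3 and 0.05 without WT untreated replicate 2. The second was -0.02 without KO esiCT OXPT replicate 1, -0.05 without WT OXPT replicate 3 and, leaving out KO esiCT OXPT replicate 3, -0.22. Without OXPT 0 members had an unadjusted p under 0.05 (edgeR), against 709 of 12356 genes. With OXPT 3 members did, against 5.4% of all genes, and neither edgeR nor DESeq2 called any member in either contrast. The esiRNA of the WT cells is unsettled, so this contrast holds the genotype and possibly the esiRNA. The tests of the OXPT response of KO esiCT minus that of WT, and of KO esiHDAC4 minus KO esiCT, each called 0 members and 0% of all genes. In the first 2 members had an unadjusted p under 0.05 (edgeR, 0 by DESeq2) against 1.63% of all genes, and in the second 0 did, against 19 of 12356 genes.

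The start sites of the members were searched for 3 short motifs, because genes of this complex are known for a shared antioxidant response element (ARE) bound by NFE2L1. Sequences were from RefSeq (GRCh38.p14), 250 bases before to 50 after each start site, and 29 of the 34 members had 36 such windows. The ARE core TGACNNNGC was in 8 of the 36 windows (22.2%), on either strand, against 13.3% of all 35116 windows. They belonged to PSMA4, PSMB3, PSMB9, PSMC4, PSMC5, PSMD1, PSMD12 and PSMD3. CCAAT was in 16 windows (44.4%) against 34.6%, and TTCNNNGAA, the palindrome that STAT factors bind, in 6 (16.7%) against 7.66%. PSMA4, PSMB3, PSMC4 and PSMD3 were among the 5 genes called with #11 and OXPT, so the 250 bases before the start site are shown for the 3 of them whose core lies there, with the core in capitals. In PSMC4 it lay 27 bases past the start site.
PSMA4, chr15:78540536-78540785, plus strand: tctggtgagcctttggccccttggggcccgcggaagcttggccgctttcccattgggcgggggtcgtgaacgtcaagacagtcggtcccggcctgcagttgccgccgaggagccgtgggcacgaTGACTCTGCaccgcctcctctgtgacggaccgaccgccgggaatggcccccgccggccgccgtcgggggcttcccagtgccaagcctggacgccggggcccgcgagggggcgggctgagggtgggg
PSMB3, chr17:38752491-38752740, plus strand: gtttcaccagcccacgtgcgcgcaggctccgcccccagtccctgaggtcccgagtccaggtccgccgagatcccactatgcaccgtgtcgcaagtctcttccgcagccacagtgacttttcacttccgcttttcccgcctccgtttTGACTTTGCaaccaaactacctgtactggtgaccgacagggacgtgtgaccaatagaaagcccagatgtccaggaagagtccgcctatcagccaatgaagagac
PSMD3, chr17:39980557-39980806, plus strand: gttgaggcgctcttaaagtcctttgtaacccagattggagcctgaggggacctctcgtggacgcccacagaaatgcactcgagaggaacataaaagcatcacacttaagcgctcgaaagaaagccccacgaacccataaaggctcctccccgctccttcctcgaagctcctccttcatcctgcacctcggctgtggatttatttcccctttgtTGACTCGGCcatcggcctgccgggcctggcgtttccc
The core began 126, 104 and 37 bases before the start site in PSMA4, PSMB3 and PSMD3. In PSMD3 a second core, on the other strand, lay 33 bases past the start site. The printed PSMA4 bases lie inside the gene as GENCODE 44 annotates it, which starts at chr15:78540405. A match describes the letters and is no evidence of a bound factor. PSMB4 and PSMD7, also called, had no core in their window.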

How the data were processed

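Per the labels, poly-adenylated RNA of 36 HCT-116 libraries was sequenced after a stranded mRNA preparation, and the submitters' processing notes name Trimmomatic 0.39, STAR 2.7.11a and the hg38 genome. The authors deposited whole-number counts of reads per gene, unstranded and for each strand, with an annotation that no source used here names. The unstranded counts were used, since both strands held nearly equal totals despite the named preparation (reverse over forward 1.0044 to 1.0161), with 10.6% to 12.2% of reads ambiguous between overlapping genes. Of 62757 identifiers, 62686 matched GENCODE 44. Sample titles and treatment entries gave opposite OXPT states for 12 WT libraries, which entered no comparison. The other 24 were fitted in edgeR 4.0.16 (R 4.3.3) with TMM scaling and 1 term per group, for genes with a mean of 64 raw counts in at least 1 group. Tests were quasi-likelihood F tests with Benjamini-Hochberg adjustment, and SE is the log2 fold change over the root of F. Levels are CPM on TMM library sizes, and departures use log2 CPM with a prior count of 2. Same-numbered replicates deviated together (every correlation over 0.1) in 8 of the 10 comparisons of groups, not in #11 against esiCT. DESeq2 1.42.0 and other settings were run beside it, and 1 more was chosen after seeing the data. The members and lists were chosen with earlier results of these data known. Values per library are given for called members and, up to 8, those of smallest p in the OXPT responses, and other genes were added after their values were seen. From other lists up to 4 genes are named, called ones first. The code was tested on simulated data.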

Additional observations from a re-analysis of the deposited data

How the results depend on the processing

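The number of members called was recomputed under 8 alternatives, under 1 more chosen after seeing the data (both the groups compared alone and the block), and without each of the 24 libraries. RLE scaling, a minimum in every group and a call on adjusted p alone kept each count within 1.5 times. In the OXPT response with #11, the count of 5 became 3 with no count filter, 8 with the replicate block, 10 when the fit held only the groups compared and again 10 when those were blocked, and DESeq2 gave 7. In KO esiHDAC4 the count of 1 became 0 with no filter, 0 with only the groups compared and 2 with these and the block. In WT the count of 2 became 1 on reverse-strand counts and 0 with no filter or with only the groups compared, blocked or not. In KO esiCT no filter called 1, PSMB10. For #11 against esiCT without OXPT the count of 0 became 4 with no filter, 2 with only the groups compared, 4 with the replicate block and 5 with DESeq2, all lower. There the replicate numbers did not pair the samples. No filter also called 1 in #11 against esiCT with OXPT (PSMD1) and 1 in KO against WT without OXPT (PSMB10). The block changed no other count. Without 1 library the counts ran from 0 to 1 in KO esiCT, 0 to 2 in KO esiHDAC4, 0 to 6 in KO #11, 0 to 2 in WT and 0 to 3 for #11 without OXPT, and were 0 elsewhere. No member called in any fit changed sign. Over all genes, the 1175 calls of the OXPT response with #11 became 786 with the minimum in every group, 2636 with only the groups compared and 1713 with the block. They became 1459 with no count filter, 1557 by DESeq2 and 3011 with only the groups compared and the block. For #11 without OXPT 63 became 566 with only the groups compared, 397 with the block, 480 with no filter and 409 by DESeq2. With only the groups compared the calls fell from 1398 to 553 in KO esiCT and from 1322 to 84 in WT. The cause of these moves was not tested. Precision is limited by 3 libraries per group and, for PSMB8 and PSMB10, by counts under the minimum.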

Other observations

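In the 12 WT libraries whose labels conflict, scaled together with the 24 others, the median departure of the 31 genes from their mean over the 24 other libraries ran from -0.28 to 0.51 (log2 CPM), with a median of 0.18. In the 24 others it ran from -0.74 to 0.48. In the 12, PSMC4 was at 172 to 487 CPM, PSMB3 at 136 to 396 CPM, PSMD3 at 160 to 470 CPM and PSMB9 at 4.13 to 19.8 CPM. On the same scale the lowest values of the 24 were below those of the 12 for 3 of these genes, at 119 CPM for PSMC4, 102 CPM for PSMB3 and 131 CPM for PSMD3.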
